A study of Rattus norvegicus with 4 samples.

Results

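The insulin-like growth factor (IGF) system was followed in lumbar dorsal root ganglia (DRGs) through 10 protein-coding genes: the ligands Igf1 and Igf2, the receptors Igf1r and Igf2r, and the binding proteins Igfbp2, Igfbp3, Igfbp4, Igfbp5, Igfbp6 and Igfbp7. They were taken by gene symbol from a table of 33506 genes, of which 22293 are protein-coding. All 10 passed the filter on low counts that left 14719 genes for testing. The DRGs hold the cell bodies of sensory neurons with satellite glia, Schwann cells and connective tissue. The study asked which genes differed in the DRG after early-life exposure to cisplatin, a platinum-based chemotherapeutic that is toxic to sensory neurons. Wild-type neonatal Wistar rats received cisplatin at 0.3 mg/kg, or PBS as vehicle, and the study's methods give intraperitoneal injections on postnatal day (P) 14 and P16. Tissue was collected at P23 according to the methods and 16 days after treatment according to the labels. Each group had 2 libraries, each labelled as a separate rat and made from several pooled lumbar DRGs, and the methods state that both sexes were used in the study without giving the sex behind each library. P-values for single genes set the difference between groups against the spread within groups, which rests on 2 libraries each.

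IGF1 and IGF2 are secreted growth factors that act through the receptor tyrosine kinase IGF1R, which signals through insulin receptor substrates to the PI3K/AKT/mTOR and Ras/MAP kinase arms and is known for promoting the survival and neurite growth of sensory neurons. IGF2R, the cation-independent mannose 6-phosphate receptor, has no kinase: it takes IGF2 to lysosomes for degradation and sorts newly made lysosomal enzymes. The IGF binding proteins hold the ligands outside the cell, prolong their life and limit or release their access to IGF1R, and IGFBP7 binds IGFs only weakly.

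The receptors and the pair of short binding protein genes Igfbp2 and Igfbp6 had the members' largest log2 fold changes in either direction, and their promoters are shown for that reason. The RefSeq promoter table (assembly GRCr8, a later build than the Rnor_6.0 coordinates of the deposited tables) held all 10 members. The 250 bases before the annotated start site of each of these 4 genes are given 5′ to 3′ on the gene's strand, with capitals marking matches on either strand to GGGCGG (the core of a GC box), CACGTG (a palindromic E-box) or TATAAA (the classical core promoter box). Igf1r lies at chr1:130959747-130959996, Igf2r at chr1:50526628-50526877, Igfbp2 at chr9:81864561-81864810 and Igfbp6 at chr7:135154669-135154918, all on the plus strand.
Igf1r: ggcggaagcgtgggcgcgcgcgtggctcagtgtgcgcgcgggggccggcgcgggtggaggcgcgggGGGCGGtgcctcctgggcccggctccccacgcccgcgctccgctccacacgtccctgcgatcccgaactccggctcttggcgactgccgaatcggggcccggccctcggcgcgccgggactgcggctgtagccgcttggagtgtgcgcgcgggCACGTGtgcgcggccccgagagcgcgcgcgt
Igf2r: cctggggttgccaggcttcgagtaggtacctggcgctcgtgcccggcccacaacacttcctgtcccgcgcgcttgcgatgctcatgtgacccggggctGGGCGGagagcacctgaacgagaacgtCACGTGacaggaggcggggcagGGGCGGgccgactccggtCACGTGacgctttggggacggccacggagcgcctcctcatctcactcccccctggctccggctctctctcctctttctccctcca
Igfbp2: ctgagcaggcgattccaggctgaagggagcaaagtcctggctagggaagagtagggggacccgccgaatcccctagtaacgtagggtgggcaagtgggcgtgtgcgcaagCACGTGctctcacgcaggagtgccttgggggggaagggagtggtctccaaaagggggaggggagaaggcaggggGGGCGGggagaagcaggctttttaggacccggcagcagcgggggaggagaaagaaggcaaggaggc
Igfbp6: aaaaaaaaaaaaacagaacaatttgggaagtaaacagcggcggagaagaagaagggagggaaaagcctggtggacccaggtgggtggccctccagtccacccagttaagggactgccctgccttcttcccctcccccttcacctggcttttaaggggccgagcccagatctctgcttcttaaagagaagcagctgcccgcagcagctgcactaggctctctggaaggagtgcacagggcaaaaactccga
The Igf1r promoter had a GC content of 79.6%, against a median of 51.2% over the 33469 promoters of the table, and held 1 GC box and 1 E-box that starts 31 bases before the start site. The Igf2r promoter held 2 GC boxes and 2 E-boxes, which start 125 and 85 bases before the start site. Both of these E-boxes are preceded by GT and followed by AC, as in the CLEAR element known from lysosomal gene promoters, and an E-box so flanked was present in 0.203% of all promoters. Igfbp2 held 1 GC box and 1 E-box, and Igfbp6 held none of these motifs. Across all promoters GGGCGG was present in 30.5%, CACGTG in 5.59% and TATAAA in 12.9%, the last among the members only in Igfbp4. These matches describe the letters in the windows and are not evidence of binding.

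The libraries had 21384801 to 25618417 counts, and in each of them 3 counts corresponded to 0.118 to 0.152 CPM (counts scaled to the library size, here with TMM factors), so that all members lay well above this counting floor. Sensory neuron markers checked the tissue label: all 12 of 12 were tested, none was at 0, and their summed level was 9320 to 12058 FPKM (fragments per kilobase of gene length, scaled per library) after vehicle and 11198 to 15841 FPKM after cisplatin. Schwann cell markers differed between the replicates of both groups, as given beside the ligands. Vehicle replicate 1 also stood apart in skeletal muscle markers, whose sum over the 7 of 8 listed genes in the table was 455 FPKM there and 13.6, 43.5 and 13.4 FPKM in vehicle replicate 2 and cisplatin replicates 1 and 2. Its sum of spinal cord glia markers (6 of 6 in the table) was 49.3 FPKM, against 8.66 to 15.0 FPKM in the other libraries. In whole ganglia, fewer cells of a type and less RNA per cell cannot be told apart.

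By the mean over the 4 libraries, the 5 most abundant mRNAs of the system in the DRG were those of binding proteins. Per gene length, Igfbp7 stood first at 159 ± 29.4 FPKM (SD, n = 4 libraries), followed by Igfbp6 at 119 ± 22.3 FPKM, Igfbp4 at 70.6 ± 2.89 FPKM, Igfbp2 at 38.9 ± 8.86 FPKM and Igfbp5 at 18.7 ± 2.58 FPKM. Igf2 came next at 15.4 ± 5.15 FPKM, then Igfbp3 at 10.2 ± 1.88 FPKM, Igf2r at 8.05 ± 1.59 FPKM, Igf1 at 2.57 ± 0.571 FPKM and Igf1r at 1.82 ± 0.624 FPKM. The ranges over the 4 libraries were apart for 4 of 9 neighbours in this order: Igfbp6 lay above Igfbp4, Igfbp4 above Igfbp2, Igfbp2 above Igfbp5, and Igf2r above Igf1. The other neighbours, Igfbp7 and Igfbp6 among them, overlapped. So did Igfbp5 and Igf2, since in vehicle replicate 2 Igf2 was at 21.3 FPKM and Igfbp5 at 15.1 FPKM. Igf2 made up 86.1% and 86.7% of the summed FPKM of both ligands after vehicle and 81.6% and 86.7% after cisplatin.

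**Figure D1:**
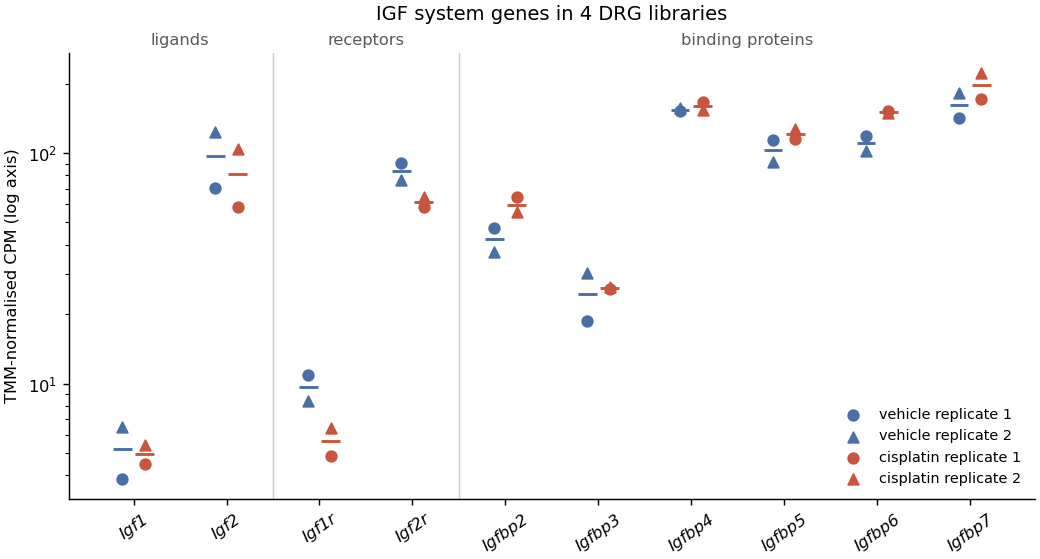
Normalised level (CPM, log axis) of the 10 members in each of the 4 libraries, with vehicle-treated libraries in blue, cisplatin-treated libraries in red, circles for replicate 1, triangles for replicate 2 and short bars for the group means. Both cisplatin-treated values lie below both vehicle-treated values for Igf1r and Igf2r and above them for Igfbp2, Igfbp5 and Igfbp6, whereas the values of the other members overlap between groups.

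None of the 10 members was called different between cisplatin-treated and vehicle-treated DRGs. The comparison used edgeR's quasi-likelihood test, two-sided, and a call needed a Benjamini-Hochberg adjusted p under 0.05 over all 14719 genes and a fold change of at least 1.5. It called 0.00679% of all genes, which is 1 gene, lower after cisplatin. At an unadjusted p under 0.05, 1 of 10 members was lower (Igf1r) and 0 were higher, against 5.83% and 3.74% of all genes tested. With the fold criterion added to the unadjusted p, these remained 1 and 0 of 10, against 5.32% and 2.8% of all genes. DESeq2 called 0 of 10 members and 0.649% of the genes to which it gave an adjusted p. The CPM of both groups did not overlap for 5 of 10 members, against 41.8% of all genes tested, with cisplatin above in 3 (20.6% of all genes) and below in 2 (21.2% of all genes). The median log2 fold change was 0.07 over the members and -0.01 over all genes tested. Without vehicle replicate 1, which stood apart in muscle and spinal cord markers, 0 of 10 members were called, and the log2 fold changes of the 5 members that did not overlap were -0.56 for Igf1r, -0.31 for Igf2r, 0.69 for Igfbp2, 0.42 for Igfbp5 and 0.57 for Igfbp6.

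Igf1r, the signalling receptor (ENSRNOG00000014187, chromosome 1, 128924966 to 129206516, plus strand, Rnor_6.0), had 10.9 and 8.38 CPM after vehicle and 4.84 and 6.42 CPM after cisplatin, with replicate 1 given first here and throughout. Both cisplatin-treated libraries lay below both vehicle-treated libraries. The log2 fold change was -0.78 (standard error, SE, 0.30), the largest in size among the members, with an unadjusted p of 0.0419 and an adjusted p of 0.516 from edgeR. DESeq2 gave an unadjusted p of 0.0492 and an adjusted p of 0.553. The counts behind these values were 273 and 165 after vehicle and 123 and 151 after cisplatin. Leaving out each library in turn gave log2 fold changes of -0.99 to -0.56.

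Igf2r (ENSRNOG00000014997, chromosome 1, 48176106 to 48264477, plus strand), which clears IGF2, had 90.7 and 76.4 CPM after vehicle and 58.1 and 64.6 CPM after cisplatin. The groups did not overlap, with cisplatin below vehicle. The log2 fold change was -0.45 (SE 0.19, edgeR adjusted p = 0.519). Summed over both receptors, the level was 12.7 and 10.4 FPKM after vehicle and 7.62 and 8.73 FPKM after cisplatin. The mRNA of the other mannose 6-phosphate receptor, M6pr, had 17.5 and 16.1 CPM after vehicle and 8.27 and 9.44 CPM after cisplatin (log2 fold change -0.92, SE 0.23, edgeR adjusted p = 0.509). Insr, the insulin receptor and the closest relative of Igf1r, had 15.5 and 12.4 CPM after vehicle and 7.99 and 8.93 CPM after cisplatin (log2 fold change -0.72, SE 0.25, edgeR unadjusted p = 0.0288 and adjusted p = 0.509). Insrr, the insulin receptor-related receptor, had 13.3 and 12.5 CPM after vehicle and 19.0 and 11.4 CPM after cisplatin, so that its groups overlapped (log2 fold change 0.24, SE 0.30). Insr and Insrr were named after their values were seen.

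Igfbp2 (ENSRNOG00000016957, chromosome 9, 80118029 to 80144789, plus strand), a binding protein with a preference for IGF2, had 47.3 and 37.3 CPM after vehicle and 64.2 and 55.3 CPM after cisplatin. The groups did not overlap, with cisplatin above vehicle. Its log2 fold change of 0.50 (SE 0.21) was the highest of the members, with an adjusted p of 0.519 from edgeR. Igfbp2 is known from the meninges as well as from neural cells. Leptomeningeal markers (10 of 10 in the table, in 12 rows of which a second Crabp2 row was at 0 in every library) summed to 131 and 113 FPKM after vehicle and 422 and 459 FPKM after cisplatin. Without Ptgds, the prostaglandin D synthase that leptomeninges share with other cells, they summed to 27.3 and 21.4 FPKM and to 26.0 and 34.1 FPKM. These sums overlapped between groups and were highest in cisplatin replicate 2, whereas Igfbp2 was highest in cisplatin replicate 1. Slc6a13 and Slc13a4, a pair of leptomeningeal transporters, were detected in every library. Of the 10 marker rows tested, 9 had a log2 fold change above 0, against 7232 of all 14719 genes tested. The other 1, Ogn, had 17.4 and 3.25 CPM after vehicle and 1.02 and 2.42 CPM after cisplatin. A positive log2 fold change was not particular to leptomeningeal markers, as 12 of 12 sensory neuron markers had one. The sensory neuron sum was highest in cisplatin replicate 1, as Igfbp2 was. The part of leptomeningeal cells or sensory neurons in the Igfbp2 values was not tested.

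Igfbp6 (ENSRNOG00000010977, chromosome 7, 143749221 to 143754054, plus strand), which binds IGF2 far more tightly than IGF1, had 119 and 102 CPM after vehicle and 151 and 149 CPM after cisplatin. Again both cisplatin-treated libraries lay above both vehicle-treated libraries. The log2 fold change was 0.44 (SE 0.18, edgeR adjusted p = 0.519). Igfbp5 (ENSRNOG00000017206, chromosome 9, 80150211 to 80167033, minus strand), a binding protein that adheres to the extracellular matrix, had 114.2 and 91.4 CPM after vehicle and 114.7 and 127.5 CPM after cisplatin. Its groups were separated only by the small gap between replicate 1 of each, and its log2 fold change was 0.24 (SE 0.20, edgeR adjusted p = 0.705). Igfbp2 and Igfbp5 lie tail to tail on chromosome 9, with 5421 bases between them.

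Igfbp7 (ENSRNOG00000002050, chromosome 14, 33010300 to 33070190, plus strand), a secreted protein known from vessels, had 142 and 181 CPM after vehicle and 171 and 222 CPM after cisplatin. Replicate 2 was the higher in each group and the groups overlapped (log2 fold change 0.28, SE 0.24, edgeR adjusted p = 0.698). Its annotation overlaps those of Polr2b by 113 bases and Rpl39 by 324 bases on the other strand, and since the use of strand in counting was not stated, reads in these stretches are uncertain. Igfbp4 (ENSRNOG00000010635, chromosome 10, 86950557 to 86962578, plus strand), an inhibitor of IGF action that the protease PAPP-A cleaves, had 152 and 157 CPM after vehicle and 166 and 154 CPM after cisplatin. It had the narrowest spread of the members relative to its level, with a log2 fold change of 0.05 (SE 0.18, edgeR adjusted p = 0.930). Igfbp3 (ENSRNOG00000061910, chromosome 14, 87457647 to 87465374, minus strand), the main carrier of IGFs in blood, had 18.7 and 30.1 CPM after vehicle and 25.7 and 26.2 CPM after cisplatin. The vehicle-treated values enclosed both cisplatin-treated values, and the log2 fold change was 0.09 (SE 0.27, edgeR adjusted p = 0.925) and turned to -0.21 without vehicle replicate 1. Igfbp1, the liver-derived binding protein next to Igfbp3, had 1 to 3 counts in each library and was not tested.

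**Figure D2:**
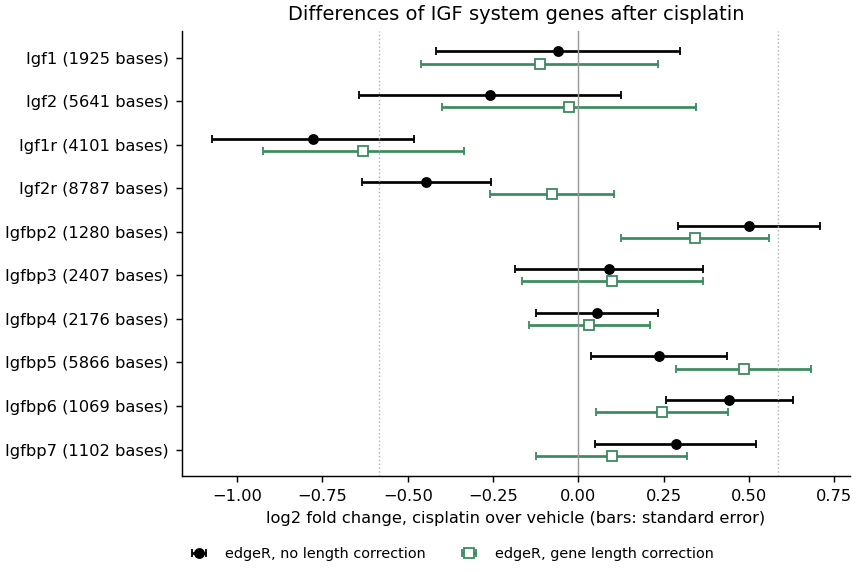
Log2 fold change of each member, cisplatin over vehicle, with bars of 1 standard error, from edgeR on TMM-normalised counts and after a correction for gene length. Igf1r is lowest at -0.78 and Igfbp2 highest at 0.50 without the correction, and with it Igf2r moves from -0.45 to -0.08 and Igfbp5 from 0.24 to 0.48.

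Igf2, the more abundant ligand (ENSRNOG00000020369, chromosome 1, 215828102 to 215846911, minus strand), is an imprinted gene of fetal and early postnatal growth. It had 70.6 and 124 CPM after vehicle and 58.2 and 104 CPM after cisplatin. The groups overlapped, and the higher value in each belonged to replicate 2, at 1.75 times replicate 1 after vehicle and 1.79 times after cisplatin. The log2 fold change was -0.26 (SE 0.38, edgeR adjusted p = 0.842), and it turned to 0.21 without vehicle replicate 2 and to 0.12 without cisplatin replicate 1. Igf1 (ENSRNOG00000004517, chromosome 7, 28412198 to 28486609, plus strand), known from macrophages and other non-neuronal cells of nerve, had 3.87 and 6.50 CPM after vehicle and 4.49 and 5.44 CPM after cisplatin. These rested on 97 to 128 counts. The vehicle-treated values again enclosed the cisplatin-treated ones, and the log2 fold change of -0.06 (SE 0.36, edgeR adjusted p = 0.964) turned to 0.36 without vehicle replicate 2 and to 0.09 without cisplatin replicate 1.

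The marker sums of several non-neuronal cell types differed between replicates, as the ligands did. Schwann cell markers (8 of 8 in the table, none at 0) summed to 28606 and 73421 FPKM after vehicle and 23313 and 66178 FPKM after cisplatin, so that replicate 2 was 2.57 and 2.84 times replicate 1. Fibroblast markers (9 of 9, none at 0) summed to 1933 and 2689 FPKM and to 1065 and 2078 FPKM. Without the collagens, the remaining 6 fibroblast markers summed to 384 and 628 FPKM after vehicle and 379 and 654 FPKM after cisplatin. Igf2 had the same order of the 4 libraries as the Schwann cell sum and the full fibroblast sum, with cisplatin replicate 1 lowest and vehicle replicate 2 highest, and Igf1 did not, as its lowest value was in vehicle replicate 1. Mural cell markers (8 of 8, none at 0) had the order of Igf2 as well, at 106 and 139 FPKM after vehicle and 79.9 and 122 FPKM after cisplatin. Satellite glia markers (8 of 8, none at 0) summed to 2533 and 2018 FPKM after vehicle and 2765 and 2360 FPKM after cisplatin. Most of this sum was Apoe, at 2340 and 1784 FPKM and at 2578 and 2127 FPKM, so its direction between replicates is that of Apoe. The other satellite glia markers were divided. Glul, at 95.7 and 153 FPKM after vehicle and 80.5 and 142 FPKM after cisplatin, and Cdh19 had the order of Igf2. Fabp7, Gja1, Kcnj10, Ptprz1 and Slc1a3 were higher in replicate 1 of each group. Macrophage markers (9 of 9) summed to 16.07 and 17.78 FPKM after vehicle and 15.42 and 17.75 FPKM after cisplatin. This was again the order of Igf2, over a far narrower range than that of either ligand. The part of these cells in the ligand values was not tested.

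**Figure D3:**
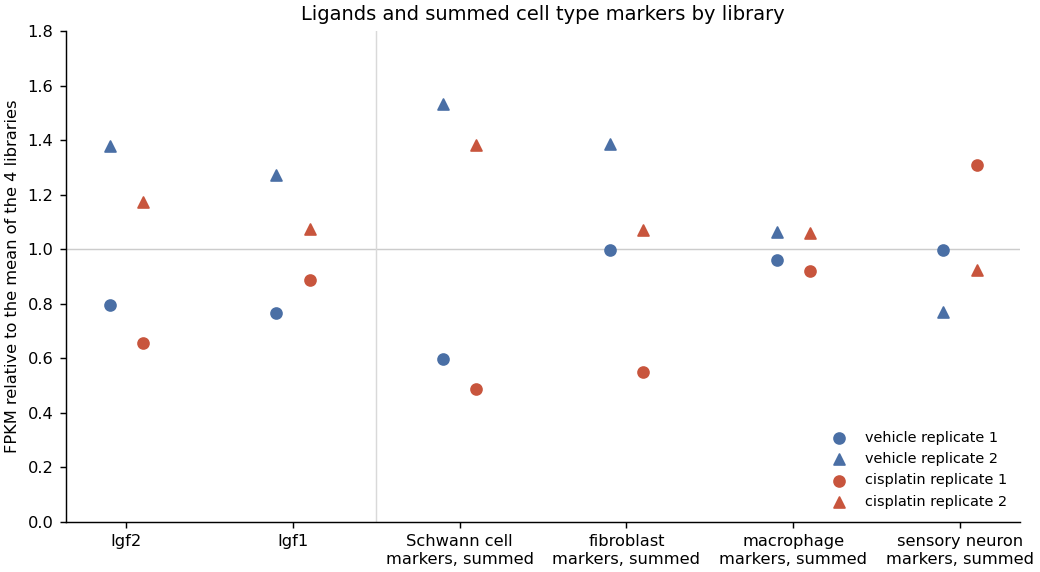
FPKM of Igf2, Igf1 and summed cell type markers in each library, divided by the mean of the 4 libraries, with vehicle-treated libraries in blue, cisplatin-treated libraries in red, circles for replicate 1 and triangles for replicate 2. Replicate 2 of each group lies above replicate 1 for Igf2, Igf1, Schwann cell markers, fibroblast markers and, by less, macrophage markers. It lies below replicate 1 for sensory neuron markers.

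The genes whose pattern over the 4 libraries was most like that of a ligand or of Igf1r were found among 11059 genes with a mean of at least 5 CPM, by the root-mean-square difference of centred log2 CPM. For Igf2 these were Pamr1, Sh2b3 and Hsd17b11, at 0.0138, 0.0230 and 0.0243. Sh2b3, an adaptor that restrains cytokine receptor signalling, had 21.3 and 39.0 CPM after vehicle and 17.8 and 32.3 CPM after cisplatin. For Igf1 they were Fubp3, Slco1a4 and Agfg2, at 0.0337, 0.0356 and 0.0379. For Igf1r, the nearest was Gsk3b, a kinase that AKT inhibits, at 0.0471, with 34.7 and 25.4 CPM after vehicle and 14.1 and 19.4 CPM after cisplatin. It was followed by Bicd1 at 0.0495 and Rdx at 0.0496. These distances over 4 libraries are a description and say nothing of shared control.

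The summed level of the 6 binding proteins was 366 and 377 FPKM after vehicle and 444 and 477 FPKM after cisplatin, and the sum of both ligands was 14.2 and 24.5 FPKM and 12.4 and 20.9 FPKM. The ratio of binding protein to ligand mRNA was 25.7 and 15.4 after vehicle and 35.9 and 22.9 after cisplatin. The groups overlapped, with the log2 of the ratio higher by 0.53 after cisplatin (exact permutation test, two-sided, p = 0.667, where 0.333 is the smallest p that 2 against 2 libraries allow). This difference was 0.16 without vehicle replicate 2 and 0.90 without vehicle replicate 1, the lowest and highest values with any library left out.

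Gene length moved with the fold changes in these libraries. Over all genes tested, Spearman's rho between log2 fold change and gene length was -0.357 across genes, which are not independent replicates. The median log2 fold change was 0.24 in the shortest of 5 groups of genes of like number, 105 to 1372 bases, where Igfbp2, Igfbp6 and Igfbp7 lie. It was -0.23 in the longest of these groups, 4027 to 28192 bases, where Igf1r, Igf2r, Igf2 and Igfbp5 lie. With a correction for length, which brought rho to 0.00288, the log2 fold change was -0.63 for Igf1r, -0.08 for Igf2r, 0.34 for Igfbp2 and 0.24 for Igfbp6. Igfbp5, a long gene with higher values after cisplatin, went to 0.48, the highest of the members on that scale. The ligands lay near 0, at -0.03 for Igf2 and -0.11 for Igf1, and the adjusted p of every member was at least 0.688 in this edgeR fit. The part of RNA quality or library preparation in the length relation was not tested.

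**Figure D4:**
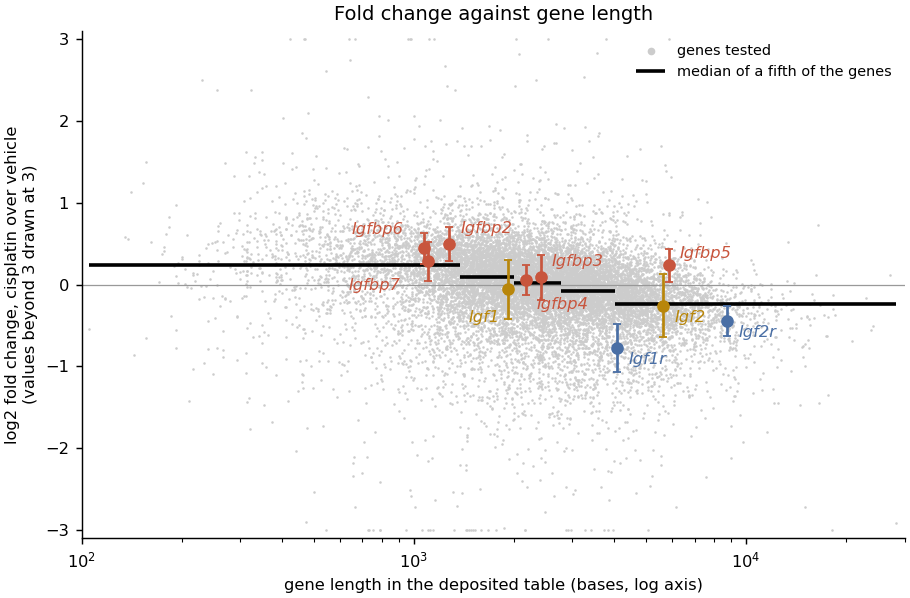
Log2 fold change, cisplatin over vehicle, against gene length in bases (log axis) for all 14719 genes tested in grey and for the members in colour with bars of 1 standard error, with horizontal lines for the medians of 5 groups of genes by length. The medians go from 0.24 in the shortest to -0.23 in the longest group, where Igf1r and Igf2r lie below and Igfbp5 above the median.

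The pathway around the members was described with 9 lists of other genes, 107 of them tested. edgeR called none of these. DESeq2, run without the filter on low counts, called 3 genes of the lists, all lower: Deptor, Tsc1 and Igfn1. Igfn1, a muscle gene, was not among the 107. Over all genes to which it gave an adjusted p, DESeq2 called 0.649%. In edgeR, 5 of the 107 were higher and 15 lower at an unadjusted p under 0.05, against 3.74% and 5.83% of all genes. The median log2 fold change of the 107 was -0.21, and it was -0.11 with the length correction. The lower genes lay mostly in the PI3K, AKT, mTOR and FOXO list, in which 11 of 32 genes were lower and 0 higher at an unadjusted p under 0.05. The median of this list was -0.34 and was -0.35 with the length correction, after which 12 were lower and 1 was higher, against 5.08% and 1.96% of all genes. Deptor, an inhibitor that binds mTOR, had 14.6 and 11.8 CPM after vehicle and 4.72 and 5.19 CPM after cisplatin (log2 fold change -1.42, SE 0.26, edgeR adjusted p = 0.509 and DESeq2 adjusted p = 0.0215). Tsc1, a subunit of the complex that restrains mTOR complex 1 through Rheb, had 20.3 and 17.7 CPM after vehicle and 8.07 and 8.25 CPM after cisplatin (log2 fold change -1.22, SE 0.22, edgeR adjusted p = 0.509 and DESeq2 adjusted p = 0.0301). Both genes encode inhibitors of mTOR signalling. Further members of the list with an unadjusted p under 0.01 were Pik3r3, a regulatory subunit of PI3K, at a log2 fold change of -1.34, Phlpp2, a phosphatase of AKT, at -1.01, and Eif4ebp2, a translation repressor that mTOR inactivates, at -0.98. The list thus held activating and inhibiting components among its lower genes, and none passed the adjusted threshold in edgeR.

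The remaining lists had few genes past an unadjusted p of 0.05. In the Ras and MAP kinase arm, 1 of 15 was lower and 0 higher, and the median log2 fold change was -0.01. Of 11 proteases of the binding proteins and their inhibitors, 1 was lower, Adam12, a metalloprotease that cleaves IGFBP3 and IGFBP5, at a log2 fold change of -2.03 on 9 to 49 counts, and 1 was higher. Of 18 rows for 17 receptor adaptor genes 1 was higher and 0 were lower. The higher row was a second Grb2 entry on 4 to 27 counts, which may share reads with the main Grb2 row (log2 fold change -0.13), and is uncertain. Of 11 genes of mannose 6-phosphate sorting 1 was higher and 1 lower, and of 5 genes of the growth hormone axis 1 was higher and 0 were lower. Of 9 other imprinted genes of growth, 1 was higher and 0 were lower. Neither of the 2 tested genes encoding Igf2 mRNA binding proteins passed. Of the 9 genes listed as other insulin family ligands, receptors and binding proteins, which include the muscle gene Igfn1 by its symbol alone, 4 could be tested in edgeR, with 1 lower (Insr) and 0 higher, while Ins1 had 0 counts in every library and Ins2 at most 2 counts.

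**Figure D5:**
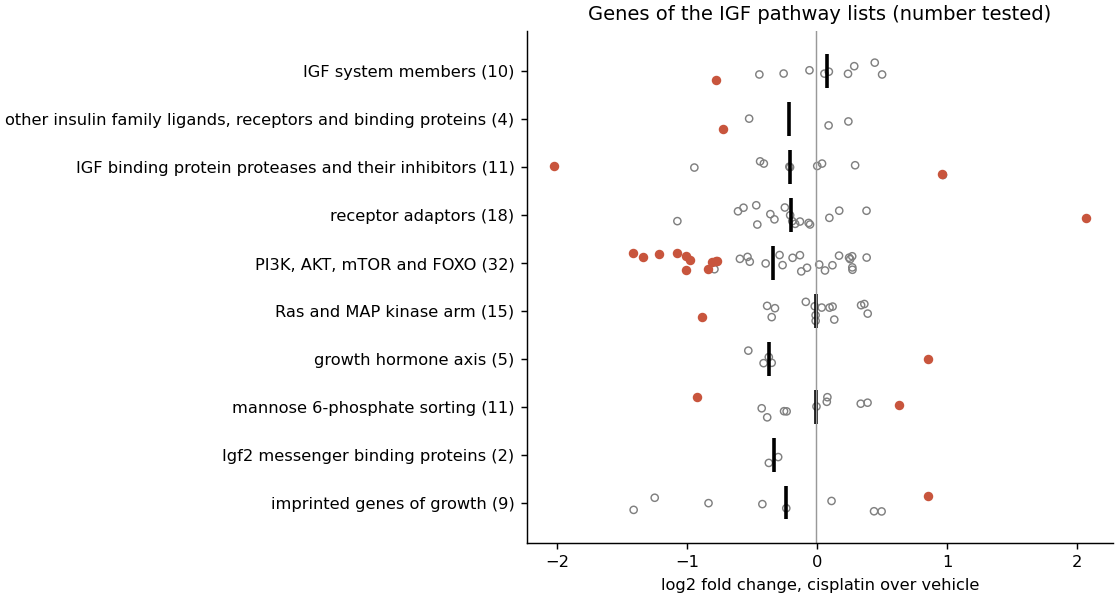
Log2 fold change, cisplatin over vehicle, of each tested gene in the member list and in 9 lists of the surrounding pathway, with the number tested in parentheses, filled points for an unadjusted p under 0.05 from edgeR and black bars for the median of each list. The PI3K, AKT, mTOR and FOXO list holds 11 filled points, all below 0, and no other list holds more than 2.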

How the data were processed

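Poly(A)-selected RNA from lumbar DRGs was sequenced as paired reads. Per the study's methods and the submitters' processing notes, adaptors were trimmed by the authors, who used HISAT2 2.0.5 for mapping to Rnor_6.0 and assembled transcripts with StringTie 1.3.3b. featureCounts 1.5.0-p3 is named without a role, and the strand setting is not given in the sources used here. The authors deposited raw counts per gene and FPKM values. Each FPKM is a count over gene length and over a library constant of 0.938 to 1.10 times the library's total.

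Here, genes annotated as protein-coding and kept by filterByExpr were compared with edgeR 4.0.16 (TMM, glmQLFit, glmQLFTest, R 4.3.3), cisplatin against vehicle, with no block. DESeq2 1.42.0 and limma 3.58.1 on log2(FPKM + 1) and log2(FPKM + 0.1), which understates changes of low genes, were alternatives, as were other scalings and filters, all biotypes, the replicate number as a block, a gene length correction (lowess, span 0.3) and leaving out each library. Each edgeR standard error is the absolute log2 fold change over the square root of the quasi-likelihood test's F statistic. It thus derives from the test and is an approximation. Levels between genes were compared in FPKM. The tests were run on simulated counts with a lower dispersion than these data and no difference shared by replicates. How they perform on data as spread as these was therefore not tested. Floors cover counting error only, since PCR copies were not marked by molecular identifiers. The closest pair of libraries, vehicle replicate 2 and cisplatin replicate 2, differed beyond sampling noise (chi-square over degrees of freedom, 46.2). This pair crosses the groups. On the same measure the vehicle-treated pair was at 116, the cisplatin-treated pair at 152 and the pair of both replicates 1 at 116.

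Members and lists were chosen with earlier results of these data known. All members were named. Pathway genes were named at an unadjusted p under 0.01 with groups that did not overlap, at most 8, and nearest patterns as the 3 closest genes. Insr, Insrr, Grb2, Ins1, Ins2, Igfbp1, Igfn1, Mir675 and single marker genes were named after their values were seen. Promoters came from RefSeq (GRCr8), and none of its coordinates was used with the deposited tables. Values of some genes that these rules would name are left out.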

Additional observations from a re-analysis of the deposited data

How the results depend on the processing

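Under every alternative Igf1r and Igf2r kept a negative and Igfbp2, Igfbp4, Igfbp5, Igfbp6 and Igfbp7 a positive log2 fold change. Leaving out each library in turn gave -0.38 to 0.36 for Igf1, -0.74 to 0.21 for Igf2 and -0.21 to 0.47 for Igfbp3, with the lone library of a group assumed to vary like the others. Over all genes, 1 gene was called with every library, 5 without vehicle replicate 1, 4 without vehicle replicate 2, 0 without cisplatin replicate 1 and 7 without cisplatin replicate 2, and 0 members were called in each of these fits. The neighbours apart in the order of levels were 4 to 7 of 9, the latter without vehicle replicate 1. The cause was not tested.

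Without the filter, or with at least 10 counts in every library, 2 genes were called. limma called 4 on log2(FPKM + 1) and 0 on log2(FPKM + 0.1). DESeq2 called 99 genes, 36 higher and 63 lower, and 3 pathway genes, all lower: Tsc1, Deptor and Igfn1, which is a muscle gene despite its symbol and had 73 counts in the muscle-rich vehicle replicate 1 and 3, 0 and 0 in the others. At an unadjusted p under 0.05 from edgeR with the fold criterion, 1195 of 14719 genes (8.12%), 1 of 10 members (Igf1r) and 20 of 107 pathway genes passed.

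Replicate numbers join different rats, and no label ties them. A replicate block in edgeR gave 1665 calls (11.3% of genes, 529 higher and 1136 lower). In this edgeR fit, 1 of 10 members (Igf1r, log2 fold change -0.78, adjusted p = 0.0485) and 23 of 107 pathway genes (4 higher, 19 lower) were called. Igf2r, Igfbp2 and Igfbp6 had adjusted p of 0.0353, 0.0170 and 0.020 in edgeR with the block and missed the call on the fold criterion. With the block and the length correction edgeR called 1132 genes (7.69%), 0 of 10 members and 20 of 107 pathway genes. Igfbp5 was at an adjusted p of 0.0288 in this edgeR fit and below the fold criterion. The correlation between groups of the differences of replicate 2 minus replicate 1 over genes was 0.444, and the block moved the common dispersion from 0.0711 to 0.0209. With 2 libraries per group, the standard errors of the members were not ordered by depth: Igf2, on 1479 to 2452 counts, had 0.38 and Igf1, on 97 to 128 counts, 0.36.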

Other observations

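Mir675 lies 82.0 kb from Igf2 in the imprinted cluster of chromosome 1 (215745981 to 215746064, Rnor_6.0), within the H19 transcript as known from other annotations. This 84-base row, which is not protein-coding and entered no comparison of the main test, had 440 and 429 counts after vehicle and 179 and 586 after cisplatin, or 17.6, 21.8, 7.05 and 24.9 CPM. Cisplatin replicate 1 was lowest here, as it was for Igf2, and the groups overlapped. Since poly(A) selection does not keep mature miRNAs, this row is not a level of the mature miRNA.

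The 11 tested proteases of the binding proteins and their inhibitors lay in both directions, with 4 log2 fold changes above 0 and 7 below. Htra1, a serine protease that cleaves IGF binding proteins, had 308 and 284 CPM after vehicle and 390 and 334 CPM after cisplatin, and Timp3, a metalloprotease inhibitor, had 213 and 381 CPM and 155 and 291 CPM. Neither passed the test, and both were named after their values were seen.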
